A study of Homo sapiens with 8 samples.

Results

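The genes described here are 10 genes that define or mark the retinal pigment epithelium, out of 19974 protein-coding genes on chromosomes 1 to 22 and X. They were chosen by name: 3 transcription regulators (MITF, OTX2 and PAX6) and 7 products of differentiated or pigmented cells (RPE65, BEST1, RLBP1, LRAT, TYR, PMEL and DCT). Every called peak within the gene and 10 kb either side (its window) was taken from 8 lists of accessible regions, which gave 61 to 89 peaks per list. After overlapping peaks of the 8 lists were merged these made 203 regions, out of 588244 in all, with 56 at the regulators and 147 at the products.

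ATAC-seq, which maps accessible chromatin by letting the enzyme Tn5 cut and tag open DNA, had been run on mitotic hTERT RPE-1 cells, a telomerase-immortalised human line of retinal pigment epithelial origin. All 8 libraries came from hTERT RPE-1 Plk1-/- EGFP-Plk1as cells, which lack endogenous Plk1 and depend on an EGFP-tagged, analog-sensitive form of this mitotic kinase. The cells were held in prometaphase with the kinesin-5 inhibitor STLC (5 µM, 16 h), shaken off, and kept in STLC for 2 h more with 0.5% DMSO (4 libraries) or with 10 µM 3MB-PP1, which inhibits the analog-sensitive kinase (4 libraries). The groups thus share the genotype, the STLC arrest and a mitotic index above 95%, and the labels do not say whether the line is a single clone.

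The retinal pigment epithelium is a pigmented monolayer behind the photoreceptors that recycles visual pigment, makes melanin and engulfs shed photoreceptor membrane. MITF and OTX2 are known to switch on its pigment and visual-cycle genes, and PAX6 acts earlier in the eye field and with MITF in the optic cup. MITF has several promoters: upstream ones that pigment epithelium and other cells use, and one far downstream that is known for use in melanocytes.

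The 8 lists held 150577 to 199042 peaks with DMSO and 170682 to 252752 with 3MB-PP1. Their median peak length was 355 to 409 bp with DMSO and 269 to 324 bp with 3MB-PP1. Replicates 1 and 3 of both groups had more of their peaks on chromosome X (0.868% to 0.933%) than replicates 2 and 4 (0.595% to 0.694%), so results are also given within odd and within even replicate numbers. No read totals are in the lists, so the depth of each library is unknown, and a missing call is not a lack of signal. In pooled cells, fewer cells with an open site and a less open site in each cell cannot be told apart. The labels call the 4 libraries of a group biological replicates.

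RefSeq (GRCh38.p14) lists 20 transcript starts with sequence for 8 of the 10 genes, and a start counted as called where a peak of the list came within 1 kb of it. The first set of sequences shows what lay upstream of the regulator starts, because MITF starts with and without calls differed in base composition. Each line gives the 250 bases before the start, 5′ to 3′ on the gene's strand, with every CpG (C followed by G) in capitals.
MITF start 1, chr3:69739214-69739463, plus strand: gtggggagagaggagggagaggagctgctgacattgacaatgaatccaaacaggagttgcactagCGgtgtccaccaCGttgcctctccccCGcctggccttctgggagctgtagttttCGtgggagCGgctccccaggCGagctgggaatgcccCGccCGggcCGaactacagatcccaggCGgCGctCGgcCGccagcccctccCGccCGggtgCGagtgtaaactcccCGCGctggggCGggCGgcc
MITF start 3, chr3:69936342-69936591, plus strand: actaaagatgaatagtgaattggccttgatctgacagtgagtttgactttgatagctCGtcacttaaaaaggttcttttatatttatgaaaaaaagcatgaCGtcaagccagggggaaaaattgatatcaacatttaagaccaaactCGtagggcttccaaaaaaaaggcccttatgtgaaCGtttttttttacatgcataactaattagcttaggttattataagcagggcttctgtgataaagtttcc
OTX2 start 1, chr14:56810480-56810729, minus strand: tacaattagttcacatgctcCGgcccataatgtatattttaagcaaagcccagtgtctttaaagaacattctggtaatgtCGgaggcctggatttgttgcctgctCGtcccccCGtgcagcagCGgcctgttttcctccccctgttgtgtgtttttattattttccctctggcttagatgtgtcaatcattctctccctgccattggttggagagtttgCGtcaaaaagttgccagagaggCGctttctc
PAX6 start 2, chr11:31812721-31812970, minus strand: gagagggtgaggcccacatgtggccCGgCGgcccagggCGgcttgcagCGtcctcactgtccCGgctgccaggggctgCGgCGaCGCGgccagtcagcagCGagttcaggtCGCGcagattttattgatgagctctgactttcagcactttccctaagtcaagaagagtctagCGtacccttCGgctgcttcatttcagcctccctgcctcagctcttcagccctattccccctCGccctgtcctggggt

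MITF start 1, the most upstream, had a peak in 8 of 8 lists. Its 300-base window (250 before and 50 after the start) was 70.3% G+C and held 30 CpG. MITF start 3, at position 69936592 of chromosome 3 and the place of the melanocyte promoter, had a peak in 0 of 8 lists, with 37% G+C and 6 CpG. The sequence of start 3 is rich in A and T and holds the letters of a TATA box (TATAAA) on the opposite strand, at position -174 from the start. MITF start 2 lay between these, with calls in 4 lists (2 DMSO and 2 3MB-PP1), 46.3% G+C and 8 CpG. OTX2 start 1 had a peak within 1 kb in 8 lists at 49.7% G+C, although 3 lists alone had a peak over the start itself. For PAX6, 6 of 9 listed starts had a peak within 1 kb in 8 lists, and starts 2 and 6 were covered by a peak in 8 of 8. Starts 3, 7 and 9 were among the 6, but 0 lists had a peak over them. Starts 7 and 9 had 50% and 47.3% G+C, with 9 and 5 CpG. Over all 34961 listed starts, those with a peak in 8 lists (46.3%) had a median of 65.7% G+C and 26 CpG, and those with none (19.7%) had 43.3% and 3.

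Of the 6 listed product starts, the 3 shown next hold letters that MITF or OTX2 are known to bind; RPE65 start 1, LRAT start 1 and DCT start 1 hold no match and are not shown. Capitals mark matches, on either strand, to the MITF site TCATGTG or to the OTX2 site TAATCC.
TYR start 1, chr11:89177625-89177874, plus strand: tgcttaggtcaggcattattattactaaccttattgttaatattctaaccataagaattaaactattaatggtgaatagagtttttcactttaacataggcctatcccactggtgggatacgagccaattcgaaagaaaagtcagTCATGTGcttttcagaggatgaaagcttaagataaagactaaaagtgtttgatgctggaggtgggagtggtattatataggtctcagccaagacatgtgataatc
DCT start 2, chr13:94479683-94479932, minus strand: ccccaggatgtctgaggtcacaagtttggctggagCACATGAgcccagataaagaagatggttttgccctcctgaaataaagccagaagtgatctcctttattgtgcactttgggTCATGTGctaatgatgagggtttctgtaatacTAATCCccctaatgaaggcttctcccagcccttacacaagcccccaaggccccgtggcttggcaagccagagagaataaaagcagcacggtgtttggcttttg
RLBP1 start 1, chr15:89221580-89221829, minus strand: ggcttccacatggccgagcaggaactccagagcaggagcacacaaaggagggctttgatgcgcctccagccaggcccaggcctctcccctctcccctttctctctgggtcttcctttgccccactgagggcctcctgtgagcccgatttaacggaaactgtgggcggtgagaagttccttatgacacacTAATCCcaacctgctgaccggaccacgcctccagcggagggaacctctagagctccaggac

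TYR encodes tyrosinase, the first enzyme of melanin synthesis, and its start had a peak within 1 kb in 1 of 8 lists (3MB-PP1). It holds TCATGTG at position -105 from the start, in a window of 37% G+C. DCT encodes dopachrome tautomerase, a later enzyme of the same pathway. Its start 2 holds TCATGTG at position -135 and, on the opposite strand, at -215, and TAATCC at -103. This start had a peak within 1 kb in 6 lists (3 and 3) but over the start itself in 0. RLBP1, which encodes the retinaldehyde carrier of the visual cycle, holds TAATCC at position -61 and had calls there in 2 lists, both DMSO. Of all 34961 windows, 2.90% held TCATGTG, 6.34% TAATCC, 11.5% TATAAA and 7.27% CACGTG, another MITF site, which was in 0 of the 20 windows. These are matches of letters and not measured binding.

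**Figure D1:**
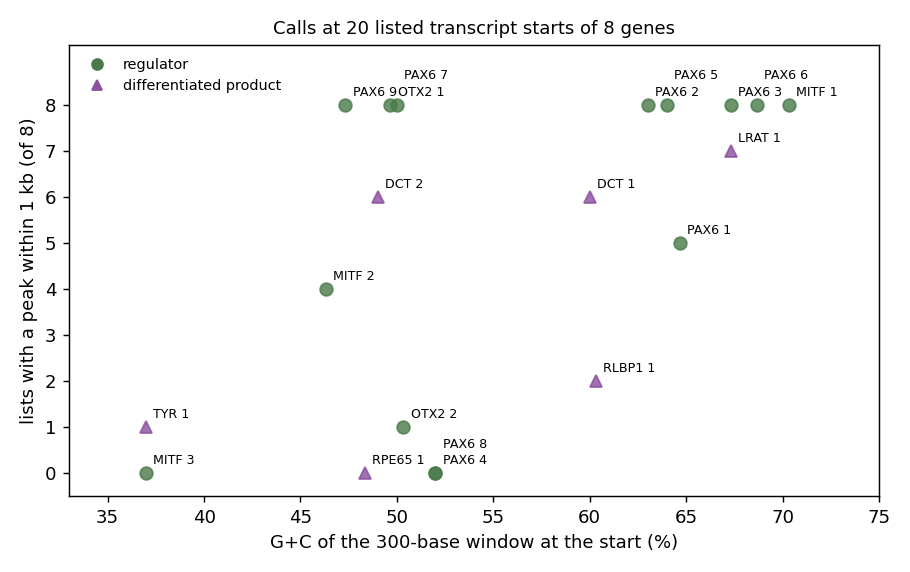
Number of lists (of 8) with a peak within 1 kb of each of 20 listed transcript starts, against the G+C content (%) of its 300-base window; circles are regulator starts and triangles product starts, labelled with gene and start number. MITF start 1 lies at 8 lists and 70.3% G+C and MITF start 3 at 0 lists and 37%; no product start reaches 8 lists.

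Counted by gene, a start peak was present in 8 of 8 lists for 4 of the 10 genes: the 3 regulators and PMEL. Over all protein-coding genes the share was 60.2%, and over those with a listed start 62.7%. The regulators had it in 3 of 3 and the products in 1 of 7. Within 100 bp these were 2 of 3 and 1 of 7, OTX2 then being called in 4 lists, against 52.4% of all genes. Within 2.5 kb they were 3 of 3 and 3 of 7, with BEST1 and DCT added, against 65.8% of all genes. PMEL and BEST1 have no listed start, and either annotated end was used for them. The BEST1 region in 8 lists within 2.5 kb lay 1367 bp from its annotated end and over FTH1, another gene. That call therefore cannot be assigned to BEST1. The PMEL end at position 55966709 of chromosome 12 lies 121 bp from the end of CDK2, a cyclin-dependent kinase gene, so that its call cannot be told apart from one at CDK2. DCT and LRAT had a start peak in 7 lists, lacking it in DMSO replicate 1, and without that library the count was 6. No share of all genes is given for those 7 lists. BEST1 and RLBP1 had it in 2 lists, TYR in 1 and RPE65, which encodes the retinoid isomerase, in 0, as did 10.8% of all genes. The count fell to 0 of 10 when peaks needed a -log10 q of 5 or more. MITF then had a start peak in 7 lists, PAX6 and PMEL in 6, and the others in 0. No share of all genes is given at this cut. Genes are few and not replicates, so the regulators and products were not tested against each other.

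The extent of called accessibility was measured as the share of each window covered by peaks, averaged over the 8 lists. OTX2 (15.9%) and PAX6 (12.8%) lay at percentiles 98.3 and 95.5 of all genes, BEST1 (10.4%) and PMEL (9.87%) at 90.5 and 88.6. DCT (6.97%), LRAT (5.60%) and RLBP1 (4.44%) lay within or near the middle of the range, where the median gene had 5.01% (quartiles 2.88% and 7.50%). MITF (2.19%), whose window spans 248.869 kb, lay at percentile 17.7. TYR (0.532%) and RPE65 (0.306%) were at percentiles 5.18 and 4.00. A peak anywhere in the window was called in 8 lists for 9 of the 10 genes, against 89% of all genes. The exception was RPE65, with 140 bp in DMSO replicate 2, 308 bp and 560 bp in 3MB-PP1 replicates 2 and 3, and no peak in the other 5 lists.

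**Figure D2:**
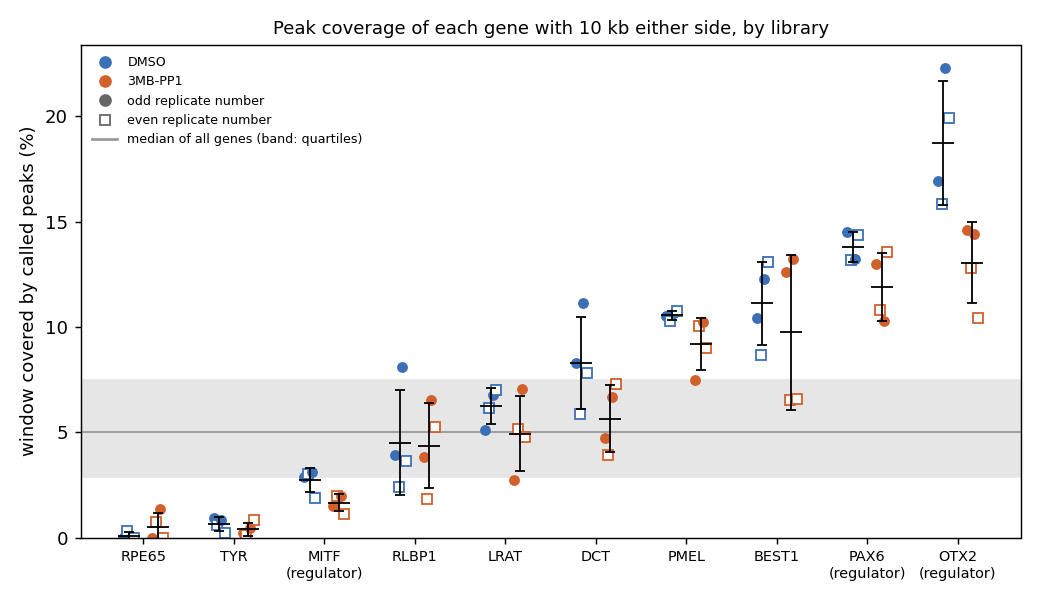
Share of each gene's window (gene and 10 kb either side) covered by called peaks (%), 1 point per library, ordered by mean; black bars are the group mean ± SD (n = 4), the grey line and band the median and quartiles of 19974 genes. RPE65 and TYR sit near 0 in both groups, and OTX2 and PMEL are the genes whose DMSO points all lie above their 3MB-PP1 points.

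MITF carried a few strong regions spread over a long gene. The region over start 1 (chr3:69738479-69740774) was called in 8 lists at pileup percentiles of 91.7 to 95.1, the rank by pileup within each list where 100 is the strongest peak. A second, inside the gene and 45922 bp from start 3 (chr3:69889867-69890670), was also in 8 lists, with a -log10 q of up to 13.5. A weaker one, 70124 bp from start 3, ranged from percentile 5.81 to 83.7. Of the 33 MITF regions these 3 were in 8 lists and 20 were in a single list. MITF therefore had 4.12 peaks per 100 kb, against 8.94 for the median gene.

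OTX2 had 2 regions in 8 lists, 1 over its start (chr14:56808493-56812901), which extends beyond both sides of it, and 1 upstream by 6122 bp, over the antisense gene OTX2-AS1. ATAC-seq has no strand, so OTX2 and OTX2-AS1 share these calls. The start region ranked between percentiles 89.3 and 94.7, yet its -log10 q was 2.50 to 4.33, below 5 in every list. PAX6 had the strongest region of the regulators, over start 2 (chr11:31809977-31813198), at percentiles 98.2 to 98.7 in the 8 lists. A second wide region (chr11:31803823-31806401) covered starts 5 and 6 at percentiles 95.0 to 96.9. A weaker region in 8 lists lay 20681 bp beyond the most downstream start, inside ELP4, an Elongator subunit gene that overlaps the PAX6 regulatory domain.

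**Figure D3:**
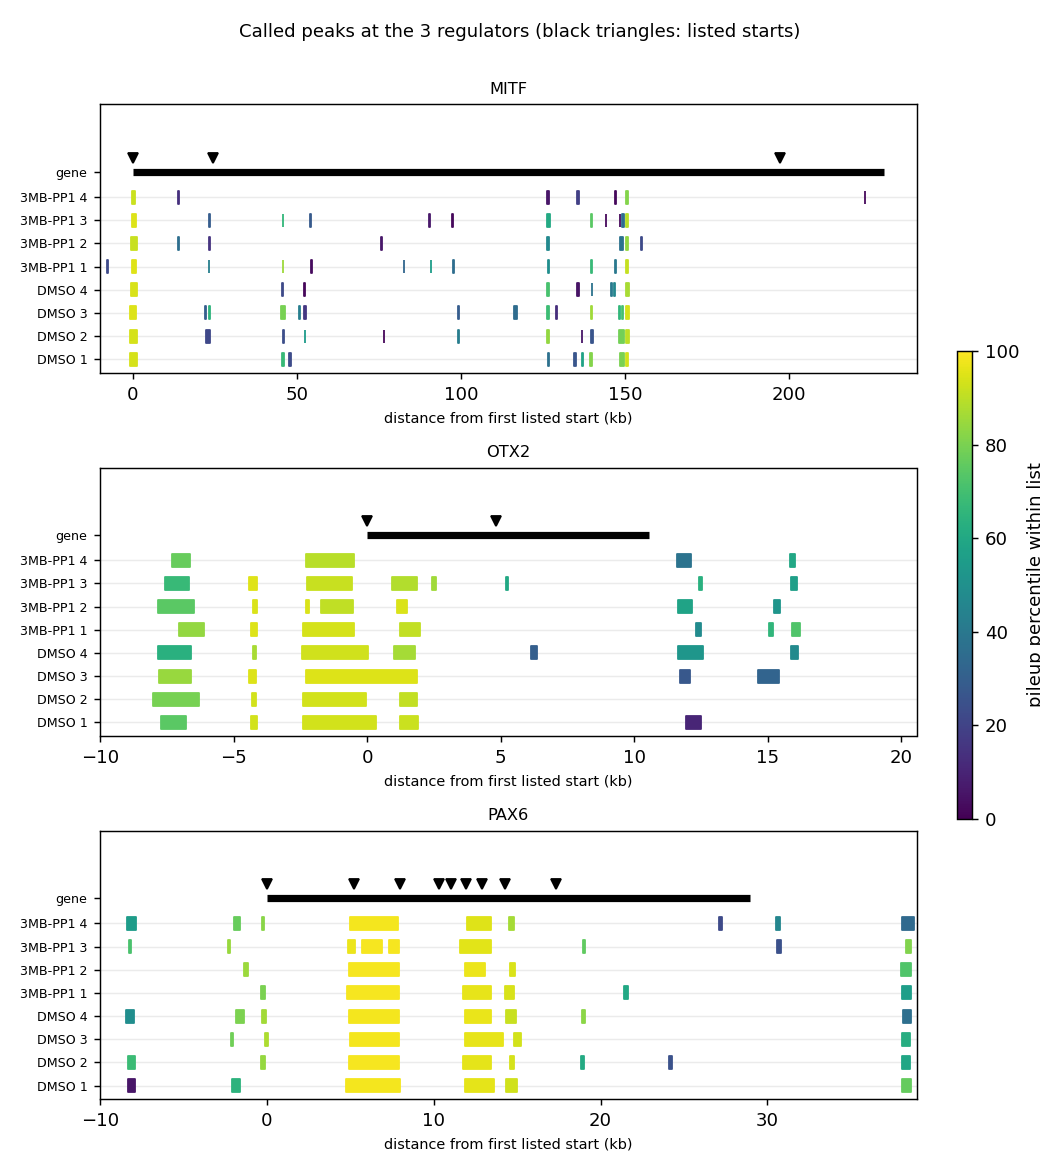
Called peaks in each of the 8 lists (rows) at MITF, OTX2 and PAX6, against distance from the first listed start along the gene (kb); colour is the pileup percentile within the list, the black bar the gene and the triangles its listed starts, and short peaks are drawn at the width of a line. MITF start 1 has a peak in every list and start 3 in none, and PAX6 has 2 blocks of high rank in every list.

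The products split by how their peaks were placed. PMEL, which encodes the fibril protein of melanosomes, had the highest-ranked region of all 10 genes, at percentile 99.9 in the mean with a -log10 q of 24.7 to 68.4. That region (chr12:55972888-55974782) lies over the listed start of RAB5B, a small GTPase gene, and next to an annotated end of CDK2. It does not lie at PMEL. Peaks within 1 kb of the end of another protein-coding gene made up a median of 89.7% of the covered length in the PMEL window (range 74.1% to 100% over the 8 lists). DGKA, a lipid kinase gene, ends 82 bp from PMEL on its other side. For BEST1, a chloride channel gene of the basal membrane, the median was 36.9%. Its regions in 8 lists were 1 at FTH1, the ferritin heavy chain gene (chr11:61966882-61968177), and 1 further out at chr11:61970807-61972457, both outside BEST1. RAB3IL1 also ends in the BEST1 window and ABHD2 in that of RLBP1.

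DCT was the reverse of TYR, although both encode melanin enzymes and have windows of 133 and 138 kb. DCT held 81 regions and 19.0 peaks per 100 kb, but 0 of them were called in 8 lists, 42 were in a single list and the best peak per list ranked at percentiles 61.3 to 76.3. TYR held 10 regions and 1.36 peaks per 100 kb. The TYR region in most lists (chr11:89183212-89184922) was called in 4 DMSO lists and 1 3MB-PP1 list, at 1271, 844, 831 and 299 bp in DMSO replicates 1 to 4 and 206 bp in 3MB-PP1 replicate 3. RLBP1 had 1 region in 8 lists, inside the gene (chr15:89214715-89215825), at percentiles 62.6 to 86.6. LRAT encodes the enzyme that esterifies retinol, and its merged region that spans the start (chr4:154743753-154745134) was in 7 lists at percentiles 36.3 to 69.3. Only 1 list had a peak over the start itself, and 2 lists had a peak within 100 bp of it. RPE65 had 5 regions, each in a single list.

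**Figure D4:**
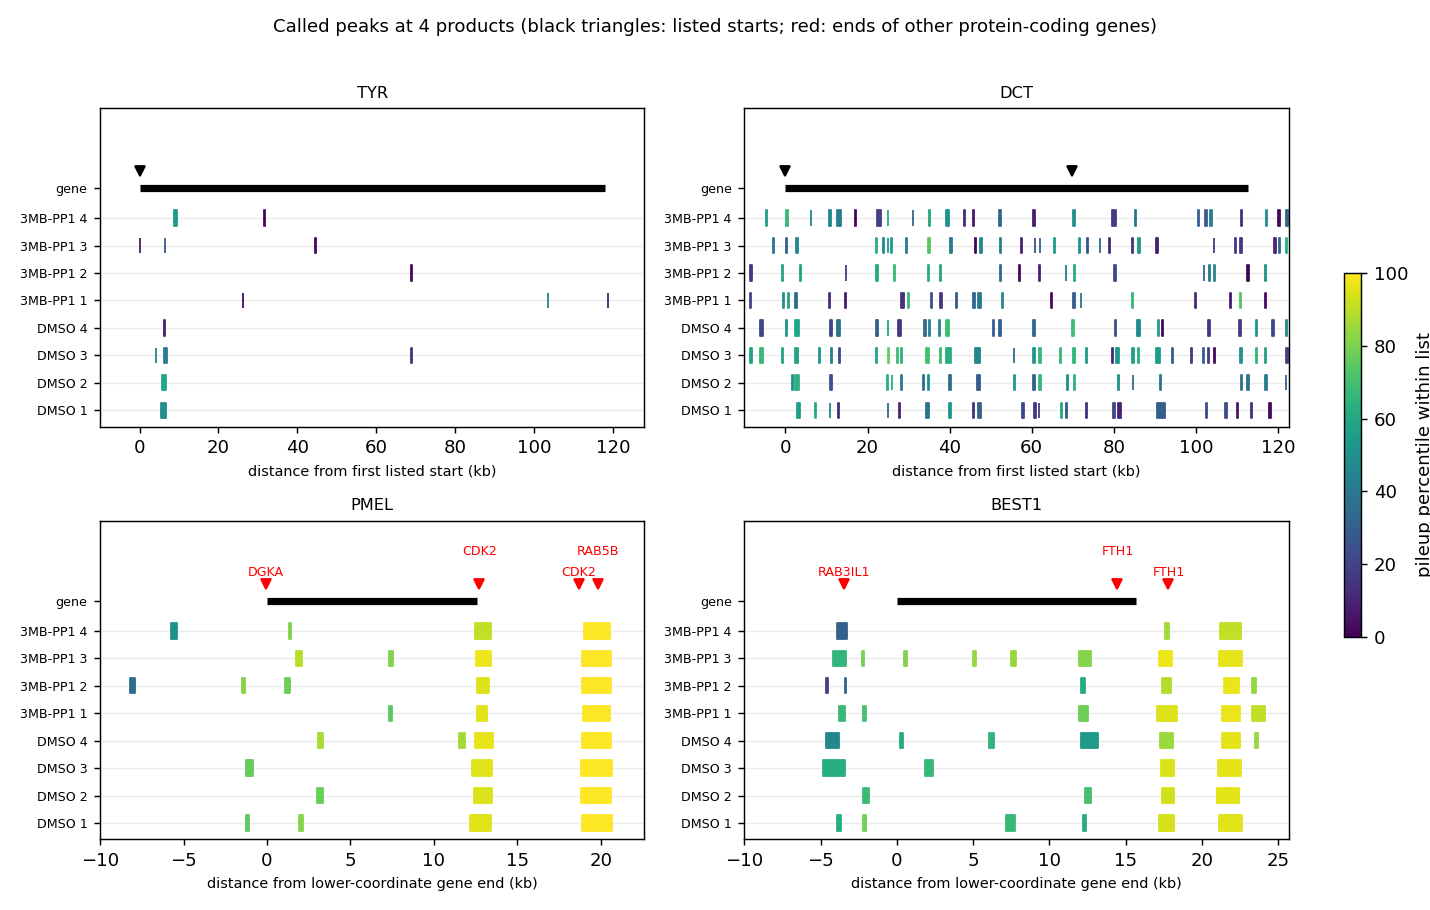
Called peaks in each of the 8 lists (rows) at TYR, DCT, PMEL and BEST1, against distance from the first listed start along the gene, or from the lower-coordinate gene end where no start is listed (kb); colour is the pileup percentile within the list, black triangles are listed starts and red triangles ends of other genes, and short peaks are drawn at the width of a line. TYR is nearly empty, DCT has many peaks of middle or low rank that differ between lists, and the strongest PMEL and BEST1 blocks lie at or beyond CDK2, RAB5B and FTH1.

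Regions that recur in every list were 8 of the 56 at regulators (14.3%) and 5 of the 147 at products (3.40%), against 6.23% of all regions. Of those 5, 3 lie at ends of other genes. DCT held 81 of the 147 product regions, and 0 of its regions were in 8 lists. By gene the share in 8 lists was 22.2% for OTX2, 21.4% for PAX6, 18.2% for PMEL and 16.7% for BEST1. It was 9.09% for MITF, 7.69% for RLBP1 and 0% for DCT, LRAT, RPE65 and TYR. Single-list regions were 51.2% of the 203, against 51.9% of all regions. The median peak at the regulators ranked at percentile 73.7 ± 5.8 with DMSO and 68.8 ± 9.1 with 3MB-PP1 (SD, n = 4 lists). At the products it ranked at 49.8 ± 5.4 and 46.4 ± 3.1. In each of the 8 lists the regulator median (57.4 to 79.2) was above the product median of the same list (43.6 to 57.5). These pooled medians weigh genes by their peaks: DCT gave 24 of the 44 product peaks in DMSO replicate 1. By gene the classes mixed in that list. The median peak ranked at 91.9 for OTX2, 84.6 for PAX6 and 67.2 for MITF. For the products it was 88.3 (PMEL), 72.7 (BEST1), 68.8 (RLBP1), 49.3 (TYR), 42.3 (LRAT) and 22.5 (DCT).

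The comparison of 3MB-PP1 with DMSO asks whether loss of Plk1 activity changes mitotic accessibility at these genes. None of the 10 genes passed the test. In the mean, 9 genes had less covered length with 3MB-PP1 and RPE65 had more, and over all genes 69.2% were lower. In the limma fit across 19549 genes with a peak in any list, 0 genes were called in either direction (0%) at an adjusted p of 0.05, while 2594 (13.3%) had an unadjusted p under 0.05. Adjusted p-values of the 10 genes were 0.282 to 0.977. In the limma fit with the replicate number as a block they were 0.078 to 0.949, and again 0 genes were called. The smallest there were 0.078 for MITF, 0.119 for DCT and 0.144 for OTX2. The p-values measure the spread between these libraries.

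MITF peaks covered 7159, 7565, 7776 and 4687 bp in DMSO replicates 1 to 4 and 3760, 4933, 4939 and 2850 bp in 3MB-PP1 replicates 1 to 4. The groups overlapped through DMSO replicate 4, and the 3MB-PP1 value was lower at each of the 4 replicate numbers. The difference was -0.72 on the log2(bp + 100) scale (SE 0.22, limma adjusted p = 0.282). It was -0.78 within odd and -0.65 within even replicates, and -0.54 after each list was scaled to its total covered length.

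OTX2 peaks covered 5172, 4837, 6809 and 6081 bp with DMSO and 4460, 3914, 4408 and 3183 bp with 3MB-PP1, in the same order. There was no overlap between groups, with a difference of -0.51 (SE 0.16, limma adjusted p = 0.288). Groups that did not overlap, with 3MB-PP1 lower, were found for 2 of the 10 genes (OTX2 and PMEL) and for 6.31% of all genes. The reverse was found for 0 of the 10 and 1.04% of all genes. After scaling to total covered length the OTX2 difference was -0.34. Among peaks with a -log10 q of 5 or more, 5 of the 10 genes could be fitted, with differences of -3.04 for PAX6, -1.89 for MITF, -1.38 for BEST1, -0.53 for PMEL and 0.043 for OTX2, beside an all-gene median of -0.53. Their limma adjusted p-values were 0.173 to 0.968. Lists with no such peak entered these fits at 0 bp, which makes the differences large. These were 3MB-PP1 replicates 2 and 4 for PAX6, replicate 2 for MITF and replicate 4 for BEST1. For OTX2 they were replicates 2 and 4 of both groups.

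PMEL peaks covered 3429, 3349, 3470 and 3512 bp with DMSO and 2447, 3271, 3334 and 2942 bp with 3MB-PP1. The gap between the groups was 15 bp, and the difference of -0.20 (SE 0.15) was close to the all-gene median of -0.16. Without the peaks within 1 kb of the end of another gene the PMEL difference was 0.98 (limma adjusted p = 0.568). The peaks left out lie at CDK2, RAB5B or DGKA, and include the region over the end of PMEL itself. The lower value thus depends on peaks that cannot all be assigned to PMEL or to its neighbours. DCT peaks covered 10998, 7757, 14764 and 10370 bp with DMSO and 6282, 5175, 8873 and 9671 bp with 3MB-PP1. The DCT groups overlapped, with a difference of -0.55 (SE 0.24, limma adjusted p = 0.372). DCT replicate 3 was the highest of its group for DMSO and replicate 4 for 3MB-PP1.

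PAX6 covered 6447 to 7097 bp with DMSO and 5023 to 6630 bp with 3MB-PP1. BEST1 covered 3101 to 4669 and 2327 to 4719 bp, RLBP1 759 to 2574 and 585 to 2068 bp, LRAT 1645 to 2265 and 883 to 2275 bp, and TYR 299 to 1271 and 171 to 1141 bp. All 5 overlapped between the groups. The median difference of the 10 genes was -0.31, beside -0.16 for all genes tested. The all-gene median was 0.004 when each list was scaled to its total covered length, where RLBP1 turned to 0.12.

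Within the 13 regions of these windows that had a peak in all 8 lists, peaks covered fewer bp with 3MB-PP1 in the mean in 12, against 80.3% of the 36624 such regions in the genome. After scaling to total covered length these were 9 of the 13, against 60% of such regions. Covered bp are summed over the peaks of a list in the region: 10 of the 13 regions had 1 peak in each list, and the region at the OTX2 start had 1 to 3. In the limma fit of covered bp per region, 100 of the 36624 regions were called, each with fewer covered bp with 3MB-PP1 (0.273%), and 0 of the 13 were called. With the replicate number as a block, 0 of the 36624 were called. Leaving out DMSO replicate 1, 2 or 3, or 3MB-PP1 replicate 2 or 4, also gave 0, leaving out DMSO replicate 4 gave 252 and leaving out 3MB-PP1 replicate 3 gave 33. The median difference was -0.23 on the log2 scale for the 13 and -0.27 for all. An unadjusted p under 0.05 was found for 3 of the 13 and for 18.9% of all regions. In 3 of the 13 each DMSO library covered more bp than any 3MB-PP1 library, against 10.9% of all regions, and the reverse held in 0 of the 13 and 0.377% of all.

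The 3 were the regions at the MITF start, the OTX2 start and the CDK2 end of PMEL. Peaks over the MITF start measured 2095, 2144, 2086 and 1817 bp with DMSO and 1334, 1781, 1470 and 942 bp with 3MB-PP1. The groups were 36 bp apart at their closest, and the difference was -0.59 (SE 0.18, limma adjusted p = 0.149). Peaks in the region at the OTX2 start summed to 3418, 2996, 4181 and 3282 bp with DMSO and 2670, 1679, 2640 and 1791 bp with 3MB-PP1, a difference of -0.68 (SE 0.17, limma adjusted p = 0.110). At the CDK2 end of PMEL the DMSO peaks were 1080 to 1223 bp and the 3MB-PP1 peaks 650 to 921 bp, a difference of -0.55 (SE 0.18, limma adjusted p = 0.170). Within odd and even replicates the differences were -0.58 and -0.61 at MITF, -0.51 and -0.85 at OTX2, and -0.65 and -0.46 at PMEL. After scaling to total covered length they were -0.42, -0.51 and -0.38. With the replicate number as a block the limma adjusted p-values were 0.105 at MITF, 0.091 at OTX2 and 0.201 at PMEL. Peaks in the PAX6 region over start 2 covered 2969 to 3222 bp with DMSO and 2271 to 3091 bp with 3MB-PP1, and these overlapped.

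**Figure D5:**
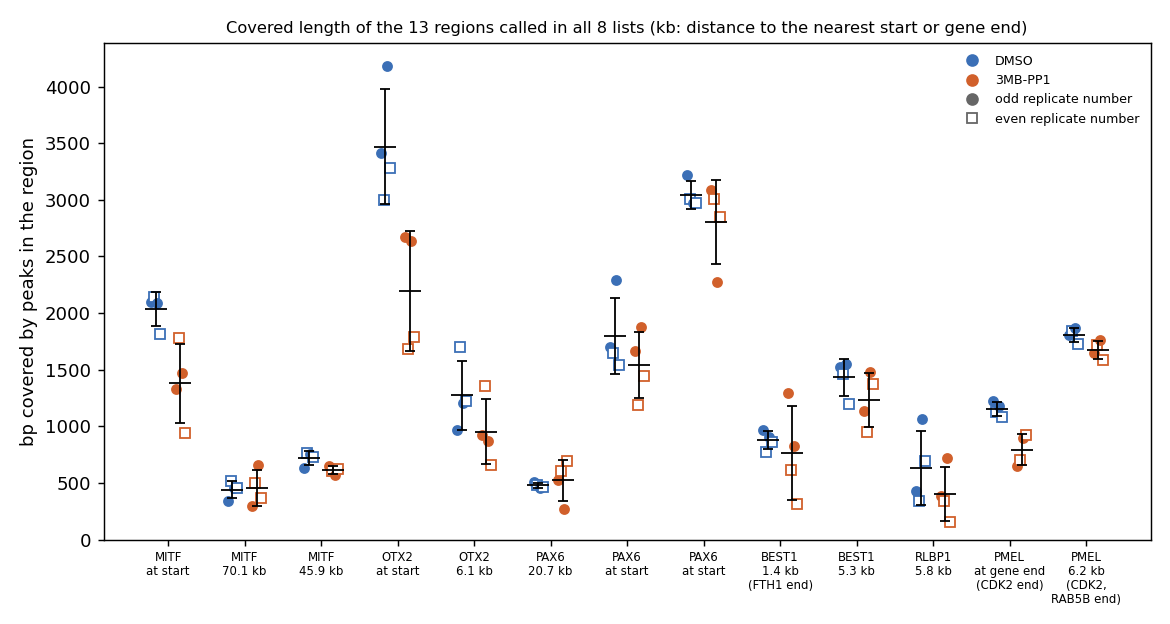
Covered length (bp, summed over the peaks of a list) of the 13 regions that were called in all 8 lists, 1 point per library, with group means ± SD (n = 4); labels give the gene, the distance to its nearest listed start or gene end (kb) and, in brackets, other genes that start or end there. In the regions at the MITF start, the OTX2 start and the CDK2 end of PMEL, every DMSO point lies above every 3MB-PP1 point, while the remaining 10 regions overlap.

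Peaks were shorter with 3MB-PP1 over the lists as a whole. The median peak at the regulators was 482 ± 101 bp with DMSO and 346 ± 88 bp with 3MB-PP1, at the products 339 ± 40 and 278 ± 51 bp, and over all peaks 390.5 ± 25 and 291 ± 25 bp (SD, n = 4 lists). Beyond the scaled values given above, the part that the shorter peaks of the lists play in the values of MITF and OTX2 was not tested.

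Rank by pileup within the list did not pass the test at any of the genes. In the limma fit of the best peak's percentile, 1 of 17780 genes was called, higher with 3MB-PP1 (0.00562%), and 0 of the 9 tested here (RPE65 had no value in 5 lists). That count was 0 with the replicate number as a block. Leaving out 3MB-PP1 replicate 2 gave 0, and leaving out DMSO replicate 3, DMSO replicate 4 or 3MB-PP1 replicate 4 gave 17, 10 and 12. Adjusted p-values of the 9 were 0.711 to 0.986. The best PAX6 peak ranked at 98.4 ± 0.21 with DMSO and 98.5 ± 0.17 with 3MB-PP1, and the best MITF peak at 94.1 ± 0.59 and 93.3 ± 1.8. The best TYR peak ranked at 41.0 ± 22 and 32.3 ± 23, so its spread would hide all but a large difference. In the same fit over regions, limma called 0 of 36624, of which 3504 (9.57%) had an unadjusted p under 0.05, and the smallest adjusted p among the 13 was 0.569.

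With all 8 lists, no region in the 10 windows was called in 4 lists of a group and 0 of the other. Over all regions 703 (0.12%) were in 4 DMSO lists and 0 3MB-PP1 lists, and 872 (0.148%) the reverse. With at least 3 of 4 lists against 0 of 4, 2 of the 203 regions were found for DMSO and 1 for 3MB-PP1, against 0.758% and 1.04% of all regions.

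Companion lists of 42 genes place these values. A start peak was in 8 lists for 22 of the 42, against 60.2% of all genes, and in 0 lists for 3, against 10.8%. Of the genes named below, SOX9, SIX3, SLC45A2, RAB38, MYO7A, KRT18, EPCAM and TWIST1 have no listed start. Either annotated end was used for them, so their call may not be at a start. Of 6 further regulators of eye and pigment epithelium, SOX9, SIX3 and OTX1 had a start peak in 8 lists and TFEC, a relative of MITF, in 0. Of 12 further products and visual-cycle genes, 4 had it in 8 lists (RDH5, RDH11, MERTK, the receptor for engulfing photoreceptor membrane, and EZR). Of 10 melanin and melanosome genes, 7 had it (SLC45A2, GPR143, GPNMB, RAB27A, RAB38, MYO7A and TRPM1), and OCA2 in 0. Of 4 neural retina genes, NRL, a rod photoreceptor regulator, had it. Of the melanocyte and neural crest pair, 0 had it in 8 lists and MLANA, a melanosome antigen, in 0 lists. The simple epithelial keratins KRT8 and KRT18 and EPCAM had it (3 of 4 epithelial genes), as did the mesenchymal VIM, FN1, CDH2 and TWIST1 (4 of 4). The limma fits called 0 of the 42 on covered length (smallest adjusted p = 0.242) and 0 on pileup percentile (smallest 0.367). Peak lists show where a call was made and not whether a gene was transcribed.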

How the data were processed

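The data are 8 deposited peak lists, each called on its own library. The submitters' processing notes name MACS2, DESeq2 and hg38, with no version or role, and aligner, read filters and any Tn5 shift are not given in the sources used here. The lists have no header. By column order, the deposited pileup is a signal (coverage) whose scaling is not stated, each deposited -log10 p or -log10 q compares a peak with background in its own list (largest q 0.09997), the deposited fold is a ratio to background, and start, end and length are in bp. These peak values are the authors' and served for ranking and filtering inside each list. More or wider calls in a list raise covered length.

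Libraries were grouped and numbered from their titles. Genes, starts and promoter sequences came from RefSeq tables of GRCh38.p14, where 10 of 10 genes matched a gene entry and 8 a promoter entry. No 2 lists shared more than 0.0339% identical peaks. Covered length was bp of peaks in the window. Peaks were merged at 1 bp of overlap. limma 3.58.1 (R 4.3.3, trend) was fitted over all genes or regions on log2(bp + 100), log2(bp) for regions, or the pileup percentile, with treatment as the one term and Benjamini-Hochberg adjustment. Genes entered with a peak in at least 1 list (length) or all 8 (percentile). Start windows were 1 kb. Same-numbered libraries of the groups correlated in their deviations from the group means at 0.107 to 0.250 for all 4 numbers (other pairs -0.253 to 0.154), so the numbers were taken to pair the libraries, and a fit with the number as a block was made as an alternative. Of the 8 libraries, 6 correlated best with their own number. DMSO replicate 2 correlated more with 3MB-PP1 replicate 4 (0.134), and DMSO replicate 3 with 3MB-PP1 replicate 1 (0.154). Whether the correlations follow the number or its being odd or even was not tested.

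The genes named are the 10, genes ending in their windows, companion genes with a start peak in 8 or 0 lists (some genes of these lists are not reported here), and per gene the region in most lists, regions in 8 lists at a start, and regions in 4 lists of 1 group and 0 of the other. The other regions named were chosen after their values were seen. The members and lists were chosen with earlier results of these data known. On simulated data of 19549 genes, a change of 2 on the log2 scale in covered length was recovered for 74% of 100 planted genes and a change of 1 for 37%. Over 36624 regions the shares were 52% and 21%. Interval functions differed from bedtools 2.31.1 in 0 of 19974 genes. Python 3.11.15, numpy 2.4.6, pandas 2.3.3 and matplotlib 3.10.9 were used.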

Additional observations from a re-analysis of the deposited data

Results flagged for a closer look

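In 64 groups of 4 libraries and measures, 4 had an extreme library that stood apart from the other 3 by Dixon's test (gap to the nearest library over the whole range, 95% level), which chance gives in about 1 of 20 groups. RPE65 peaks covered 140 bp in DMSO replicate 2 and 0 bp in the other DMSO libraries. With the other 3 at 0 bp, any single call gives a ratio of 1. The rate of 1 of 20 does not apply to this flag. Peaks in the PAX6 region over start 2 covered 3222 bp in DMSO replicate 1 and 2969 to 3009 bp in the others. The best OTX2 peak ranked at percentile 89.3 in 3MB-PP1 replicate 4 and at 94.5 to 95.0 in the others. These were peaks of different regions. In 3MB-PP1 replicates 1 to 3 it lay 4115 bp from start 1, in a region not called in replicate 4. The region at the OTX2 start ranked at 93.7, 94.4, 91.7 and 89.3 in 3MB-PP1 replicates 1 to 4. The best BEST1 peak ranked at percentile 90.6 in 3MB-PP1 replicate 4 and at 96.5 to 97.2 in the others. The replicate 3 value came from the region at FTH1 and the rest from the region further out. That further region ranked at 97.2, 96.5, 96.2 and 90.6 in 3MB-PP1 replicates 1 to 4.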

How the results depend on the processing

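Each alternative changed a single choice, and the split into odd and even replicates was added after the data were seen. The cause of the changes was not tested. Of the 10 genes, 5 to 10 could be fitted on covered length and 1 to 9 on percentile, depending on the setting, and of the regions in their windows 1 to 21; none that was fitted passed the threshold. Genes called on covered length were 0 as reported, 2 without peaks at other genes, 201 at -log10 q of at least 5, 47 at equal list length, and 0 to 5 with a library left out (5 without DMSO replicate 4). Genes called on best percentile were 1 as reported, 0 with the replicate block, in even replicates, with gene bodies alone, without peaks at other genes or ranked by fold, 3 in odd replicates, 6 at -log10 q of at least 5, 78 at equal list length, 2 ranked by -log10 p, and 0 to 17 with a library left out. Regions called on length were 100 as reported, 0 with the replicate block, scaled, in odd or in even replicates, 231 at -log10 q of at least 5, 261 at equal list length, 41 merged within 500 bp, and 0 to 252 with a library left out. Regions called on percentile were 0 as reported, 1 ranked by -log10 p, 3 at -log10 q of at least 5 and 3 at equal list length. The replicate block changed no other call.

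Odd or even replicates leave 2 lists per group, and a left-out library leaves 3 in its group. The condition there was all lists left in a group and 0 of the other, which is easier to meet. Regions in 4 DMSO lists and 0 3MB-PP1 lists were 703 as reported, 4461 with at least 3 of 4 lists, 232 at -log10 q of at least 5, 1003 at equal list length, 12071 in odd and 12128 in even replicates, and 1016 to 2092 with a library left out. The reverse were 872, 6147, 3, 449, 19967 and 11962, and 1121 to 2560, so that the larger of the 2 counts changed at -log10 q of at least 5, at equal list length, in even replicates and without DMSO replicate 1 or 2. In the windows of the 10 genes these counts were 0 and 0 as reported, 2 and 1 with at least 3 of 4 lists, 1 and 0 at equal list length, 9 and 5 in odd and 9 and 2 in even replicates, and 0 to 2 and 0 to 1 with a library left out. Shares of all regions are given above for the first 2 of these settings alone. The other counts are therefore not read as a result about the 10 genes. Genes here with a start peak in all lists were 4 as reported, 0 at -log10 q of at least 5 and 4 to 6 with a library left out. No share of all genes is given for the last 2 of these settings. Differences in covered length that changed sign were those of RLBP1 (-0.04 as reported, 0.12 scaled, 0.084 in even replicates, 0.37 at equal list length, and -0.28 to 0.29 with a library left out), BEST1 (0.19 in odd replicates), LRAT (1.12 with the gene body alone), PMEL (0.98 without peaks at other genes) and OTX2 (0.043 at -log10 q of at least 5). RLBP1 was above 0 without DMSO replicate 3 (0.27) or 3MB-PP1 replicate 2 (0.29). Depth per library is unknown, so no interval from counts could be given.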
